A study of Sus scrofa with 22 samples.

Results

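The cells described here are the definitive endoderm of pig embryos at embryonic days 13 and 14 (E13 and E14), set against the ectoderm and mesoderm of the same days. They are the groups that the authors' deposited table of group means names Defi_Endoderm, Ectoderm and Mesdoderm, the last in the table's spelling. The cells of each group were recovered by fitting its column of means by least squares on the values of all cells and keeping the cells whose weight was above 50% of the largest. This gave 27 definitive endoderm cells, 208 ectoderm cells and 45 mesoderm cells, which makes 280 of the 1647 cells of the series, and each cell fell into exactly 1 group. At E13 there were 12 endoderm, 85 ectoderm and 20 mesoderm cells, and at E14 there were 15, 123 and 25. The series holds polyA RNA of single cells from 20 libraries of pig embryos before implantation and 2 libraries of pgEpiSC cells, which are not used here. The labels give no treatment and no genotype, and describe all embryo libraries alike, so the day and lineage of a cell come from the group names alone. No source used here says how the authors sorted cells into groups, and the sorting may rest on the same RNA. Levels of marker genes are therefore given as a description of the groups and not as support for their names.

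Definitive endoderm is the germ layer that leaves the epiblast through the primitive streak during gastrulation and later lines the gut, liver, pancreas and airways. Nodal signalling induces it through EOMES and MIXL1, and SOX17, FOXA1, FOXA2, GATA4, HHEX and HNF4A are the transcription factors by which it is usually known. Mesoderm passes through the same streak, loses epithelial junctions and makes collagens and other matrix proteins, whereas the cells called ectoderm stay in the epithelial sheet. In mammals the earlier extraembryonic endoderm (hypoblast, later yolk sac endoderm) shares SOX17, FOXA2, GATA4 and HNF4A with definitive endoderm and makes apolipoproteins, so these genes do not by themselves separate both kinds of endoderm.

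The 12 endoderm cells of E13 came from libraries P18 (5 cells) and P19 (7 cells), and the 15 of E14 from P11 (13 cells) and P12 (2 cells). No library held cells of both days, so day and library cannot be told apart. Whether a library is 1 embryo is not given, and p-values then measure only the spread between these libraries. The counts of all cells of 1 lineage in 1 library were summed, and the levels below are counts per 1000000 counts of that sum (CPM). The libraries P11, P18 and P19 had at least 3 cells of each lineage and entered 1 fit of 9 sums with library as a block, in which 13072 genes were tested, with p-values adjusted over all of them by the Benjamini-Hochberg method. The summed counts of endoderm were 4084630 in P11, 514920 in P12, 555291 in P18 and 1465657 in P19. E13 endoderm was the shallowest material, with a median of 98263.5 counts and 6842.5 detected genes a cell, against 407659 counts and 9713 genes in E13 ectoderm. The deepest of the 5 cells of P18 held 54.1% of that library's endoderm counts. The mesoderm sum of P11, used in the 3-library fit and at E14, had 3 cells, and the deepest held 58.8% of its counts. Spike-in molecules made up 7.19% of all counts in the endoderm of P18 and 1.29% to 3.14% in the other 13 sums, and mitochondrial genes 4.39% of its pig counts against 1.33% to 1.98%. Of the 95 plate barcodes among the compared cells 93 occurred in more than 1 library, and no pair of cells had identical counts.

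By its own markers, endoderm of E13 and of E14 stood at different levels. The 8 markers of definitive endoderm (SOX17, FOXA1, FOXA2, CXCR4, CER1, HHEX, EPCAM and CDH1) summed to 1102 CPM in P18 and 998 CPM in P19 at E13, but to 473 CPM in P11 and 520 CPM in P12 at E14. They summed to 682 to 708 CPM in E13 ectoderm, 262 to 369 CPM in E14 ectoderm and 87.5 to 285 CPM in mesoderm. EPCAM, an epithelial adhesion molecule, was the largest member of the sum in the endoderm of each library. SOX17, a factor that definitive endoderm shares with hypoblast, stood at 158 CPM in P18 and 181 CPM in P19 endoderm, and at 8.57 CPM in P11 and 15.5 CPM in P12 endoderm. A SOX17 count was seen in 12 of 12 endoderm cells of E13 and in 4 of 15 of E14. After thinning every cell to 50000 counts it was seen in 10 of 11 and 2 of 15, with 1 shallower cell left out. The E14 cells therefore go against their label for SOX17, and the counts of genes below are also given for E13 alone, that is, without P11.

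**Figure D1:**
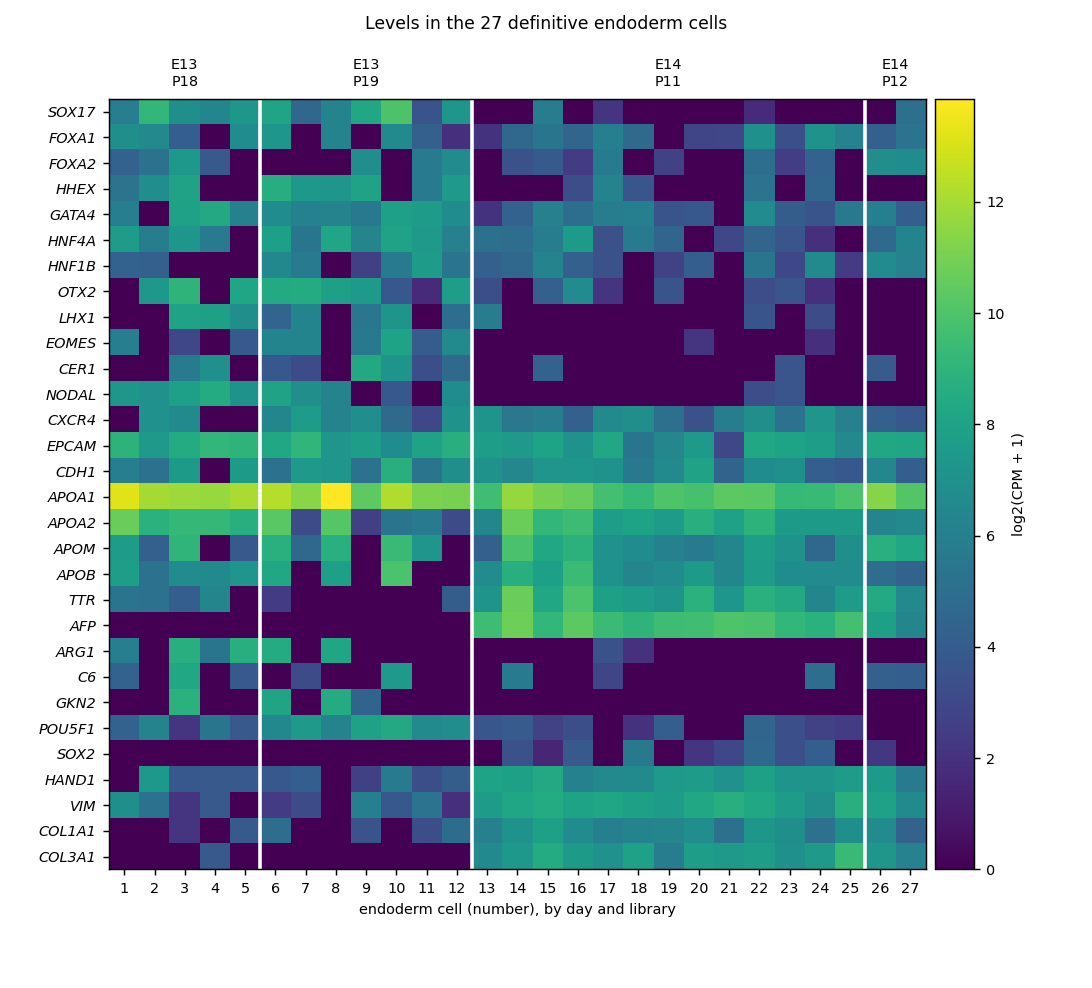
Heat map of the 27 definitive endoderm cells (columns, ordered by day and library) for 30 genes (rows), coloured by log2(CPM + 1) of the single cell. SOX17 was counted in all 12 cells of E13 and 4 of 15 of E14, AFP in 0 of 12 and 15 of 15, and APOA1 in every cell.

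Markers of the other cell types that the groups could hold were summed in the same way. The 9 hypoblast or yolk sac markers, 8 of which have an identifier, summed to 4527 and 3055 CPM in E13 endoderm and to 2637 and 2377 CPM in E14 endoderm, against 269 to 938 CPM in ectoderm and 556 to 2113 CPM in mesoderm. APOA1, whose levels are given below, made up most of these sums in P18, P19 and P12 endoderm. The other hypoblast or yolk sac markers together stood lower in both E13 endoderm sums than in both E14 sums. The higher E13 sums thus rest on APOA1. SOX7 was at 0 in P12, P18 and P19 endoderm, and AFP was at 0 in both E13 sums. The mesoderm markers, 9 of 10 with an identifier, summed to 43.2 and 47.8 CPM in E13 endoderm and to 448 and 219 CPM in E14 endoderm, against 554 to 967 CPM in mesoderm. TBXT, HAND2 and PRRX1 were at 0 in E13 endoderm. The 5 amnion markers summed to 9.0 and 92.1 CPM at E13 and to 310 and 173 CPM at E14, and GABRP and VTCN1 were at 0 in E13 endoderm. The 6 germ cell markers, which include SOX17, summed to 270 and 301 CPM at E13 and to 88.9 and 194 CPM at E14. The 8 ectoderm markers summed to 124 and 306 CPM in E13 endoderm against 760 to 826 CPM in E13 ectoderm, SOX2 was at 0 in E13 endoderm, and SOX3 was at 0 in every sum. The 7 trophectoderm markers summed to 32.4 and 123 CPM in E13 endoderm and to 210 and 344 CPM in E14 endoderm. The 7 blood and vessel markers summed to 7.20 and 36.8 CPM at E13 and to 116 and 42.7 CPM at E14. The part that such cells or their RNA have in the results below was not tested.

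Against ectoderm, definitive endoderm had higher levels of the apolipoproteins APOA1, APOA2 and APOM. Genes such as ARG1 and SLC28A3 were higher as well, mainly through E13. They stood at 125 and 288 CPM in the pool of E13 endoderm and at 0.870 and 8.04 CPM in that of E14. SOX17, FOXA1 and HNF4A were higher at E13. FOXA1 and HNF4A lay above ectoderm at E14 too, though they did not pass there. In the 3 libraries together 26 of 13072 genes (0.199%) passed an adjusted p of 0.05 in edgeR's quasi-likelihood test, all 26 higher in endoderm, and 1042 genes had an unadjusted p under 0.05. With E13 alone 153 of 13384 genes (1.14%) passed, 119 higher (0.889%) and 34 lower (0.254%). With E14 alone, where P11 and the 2 cells of P12 were used, 93 of 12778 genes (0.728%) passed, 81 higher (0.634%) and 12 lower (0.0939%). This E14 fit was chosen after the data were seen, and no library is common to it and the E13 fit. Of the 14 genes named below that passed in the 3 libraries, 9 of 13 tested no longer passed without P18 and 6 of 14 without P19, while all 14 passed without P11.

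Apolipoproteins, which carry lipids in blood and are made by liver, gut and yolk sac, led the listed genes. Of 22 lipid transport genes with an identifier 16 were tested, and APOA1, APOA2 and APOM were higher, with a median log2 difference of 2.41 over the list against −0.16 over all genes tested. At E13 alone 5 of 17 were higher (APOA1, APOA2, APOB, APOE and APOM), with a median of 3.00 against −0.25. APOA1, the main protein of high-density lipoprotein, stood at 4248 CPM in P18, 2781 CPM in P19, 1191 CPM in P11 and 1905 CPM in P12 endoderm. Its ectoderm levels were 305, 372, 524, 332 and 183 CPM in P18, P19, P11, P12 and P13. The endoderm and ectoderm levels did not overlap, and the log2 difference was 2.73 (SE 0.48, adjusted p = 0.0371), 3.50 at E13 alone (SE 0.44, adjusted p = 0.000714) and 1.84 at E14 alone (SE 0.36, adjusted p = 0.00021). Without P18 it was 2.12 (adjusted p = 0.0767) and without P19 2.47 (adjusted p = 0.285). APOA2, its partner in the particle, stood at 652, 231, 399 and 83.5 CPM in P18, P19, P11 and P12 endoderm and at 9.39 to 65.2 CPM in the 5 ectoderm sums. Its log2 difference was 4.05 (SE 0.51, adjusted p = 0.00399). APOM, a carrier of sphingosine 1-phosphate, stood at 312, 156, 194 and 381 CPM in endoderm and at 3.42 to 13 CPM in ectoderm. Its log2 difference was 5.11 (SE 0.86, adjusted p = 0.027). APOA2 and APOM passed without any one of the 3 libraries. APOB, the scaffold of low-density particles, stood at 112, 99.6, 184 and 25.2 CPM in endoderm and at 0.915 to 24.2 CPM in ectoderm. Its difference passed at E13 alone (log2 6.58, adjusted p = 0.0115) and at E14 alone (2.43, adjusted p = 0.00115), but not in the 3 libraries together (5.25, adjusted p = 0.0762). These 4 genes were thus higher in endoderm than in ectoderm of the same library in every library.

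**Figure D2:**
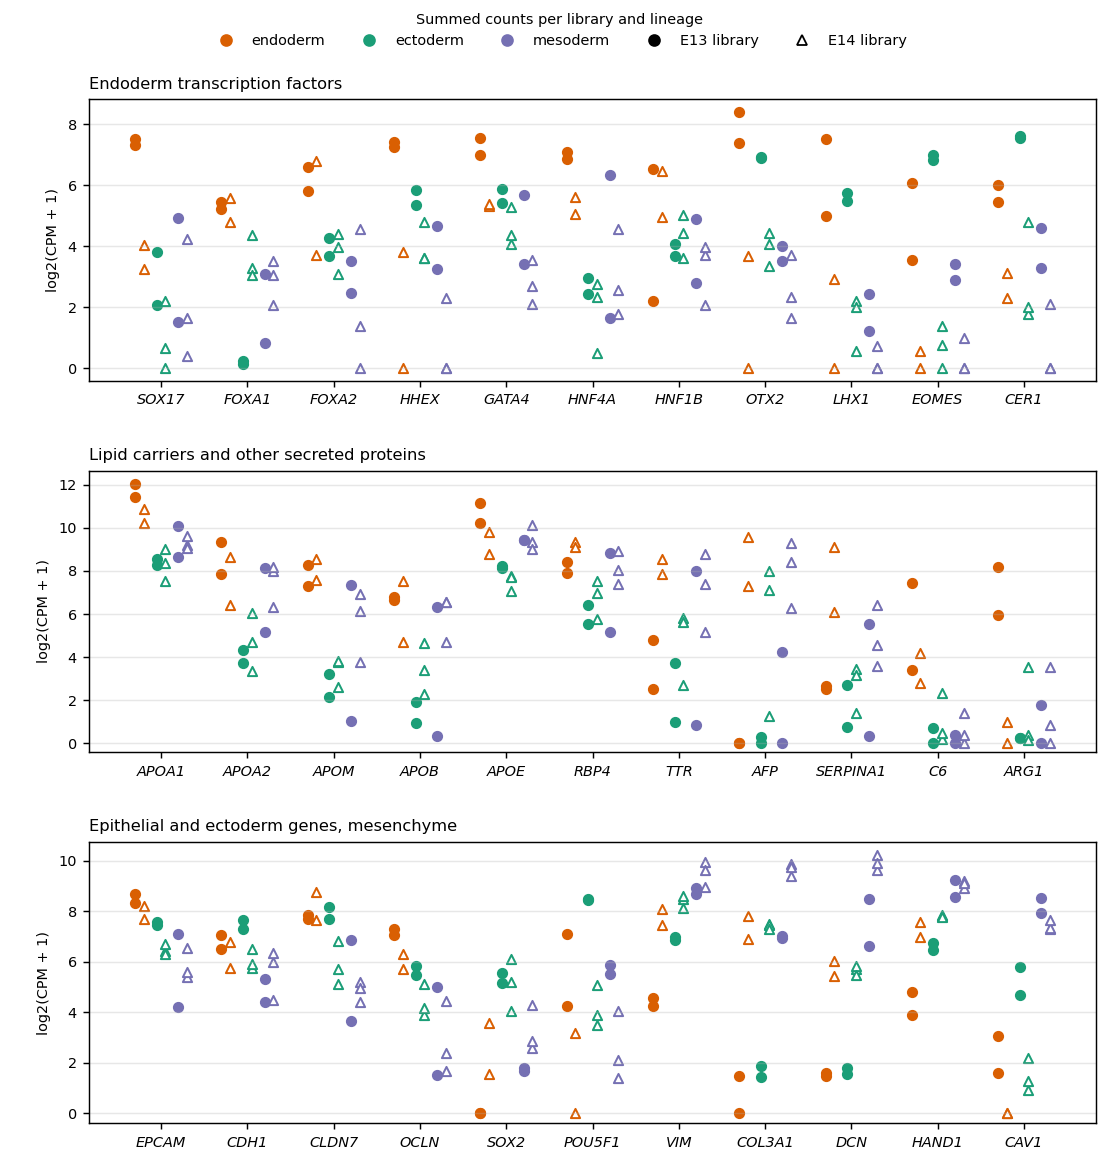
Level, as log2(CPM + 1), of 33 genes in each sum of counts by library and lineage. Filled circles are the E13 libraries P18 and P19, and open triangles are the E14 libraries P11, P12 and (ectoderm and mesoderm only) P13. APOA1 in endoderm lies above ectoderm on both days. Among the endoderm sums SOX17 and HHEX are high at E13 only, while HHEX also stood at 48.8 CPM in the pool of E13 ectoderm.

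The genes with the largest differences from ectoderm, at 50 CPM or more in endoderm and in the same direction in each of the 3 fitted libraries, included ARG1 and SLC28A3, both of which were at 0 in the endoderm of P12. ARG1, the last enzyme of the urea cycle, stood at 292 CPM in P18, 61.4 CPM in P19, 0.979 CPM in P11 and 0 in P12 endoderm, against at most 10.6 CPM in ectoderm. Its log2 difference was 8.51 (SE 1.39, adjusted p = 0.0249), 9.74 at E13 alone (adjusted p = 7.49e-05) and 8.45 without P19 (adjusted p = 0.0857). ARG1 was not among the genes tested without P18. In E13 a count of ARG1 was seen in 6 of 12 endoderm cells against 6 of 85 ectoderm cells (after thinning 5 of 11 and 0 of 83). SLC28A3, a nucleoside carrier, was counted in 11 of 12 endoderm cells of E13 and 26 of 85 ectoderm cells (after thinning 9 of 11 and 7 of 83). It stood at 647 and 152 CPM in the endoderm of P18 and P19 and at 9.06 and 0 CPM in P11 and P12 (log2 6.64 in the 3 libraries, adjusted p = 0.00906, and 7.33 at E13 alone, adjusted p = 0.000484). The others were C6 (a complement component), SLC44A4, ALOX15 (a lipoxygenase), SLC7A9 (an amino acid carrier), SLC34A2 (a phosphate carrier), PAGE4, FGL2, GPX2 (a glutathione peroxidase) and P3H2 (a collagen prolyl hydroxylase), with log2 differences of 4.19 to 7.68. All of these but PAGE4 lost their call without P18, and C6 and SLC44A4 also without the deepest endoderm cell of P18 (adjusted p = 0.304 and 0.162). C6 rested on few cells, with a count in 5 of 12 endoderm cells of E13 (after thinning 3 of 11) and 173 CPM in P18 against 9.55 CPM in P19, 5.88 CPM in P11 and 17.5 CPM in P12. At E13 alone GKN2, a secreted protein of stomach mucosa, had the largest difference (log2 10.66, adjusted p = 7.49e-05), with counts in 4 of 12 endoderm cells (after thinning 3 of 11), 252 and 49.1 CPM in the 2 sums and none in E14 endoderm.

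Of the endoderm transcription factors 3 were higher than in ectoderm at E13. None of 21 tested factors passed in the 3 libraries together, where their median log2 difference was 0.94 against −0.16 over all genes tested. FOXA1, HNF4A and SOX17 passed at E13 alone, and none of 18 at E14 alone. FOXA1, which opens chromatin for other factors, stood at 43.2 and 36.2 CPM in E13 endoderm and 0.120 and 0.183 CPM in E13 ectoderm (log2 8.07, SE 1.48, adjusted p = 0.0117). In E14 it stood at 46.8 and 27.2 CPM in endoderm and 7.35 to 19.8 CPM in ectoderm, so all 4 endoderm sums lay between 27.2 and 46.8 CPM. HNF4A, a regulator of liver and gut genes, stood at 115 and 134 CPM in E13 endoderm against 6.82 and 4.39 CPM in ectoderm (log2 4.87, SE 0.94, adjusted p = 0.016). Its E14 endoderm levels were 32.3 and 48.6 CPM, also above every ectoderm sum. SOX17 in E13 ectoderm was at 3.23 and 13.2 CPM, and its log2 difference was 4.51 at E13 alone (SE 0.94, adjusted p = 0.0272) and 4.31 in the 3 libraries (SE 0.85, adjusted p = 0.062). SOX17 also passed in the 3 libraries without P18 and without the deepest endoderm cell of P18.

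Several other genes of early endoderm were also counted at high levels in E13 ectoderm. EOMES stood at 10.8 and 66.9 CPM in the endoderm of P18 and P19 and at 128 and 112 CPM in their ectoderm, with a count in 79 of 85 ectoderm cells (after thinning 72 of 83). CER1, a secreted inhibitor of Nodal, BMP and WNT, stood at 43.2 and 63.5 CPM in endoderm and at 187 and 196 CPM in ectoderm. In single ectoderm cells of E13 it ran from 0 over a median of 33.2 to 2098 CPM, with a count in 82 of 85 cells (after thinning 60 of 83), so its level varied widely among them. NODAL stood at 214 and 78.5 CPM in endoderm and 124 and 116 CPM in ectoderm, GSC at 43.2 and 37.5 CPM against 44.8 and 36.1 CPM, and OTX2 at 337 and 169 CPM against 118 and 122 CPM. None of these passed in any fit against ectoderm (adjusted p from 0.172 to 0.946 at E13 alone). HHEX, GATA4 and LHX1 were counted in E13 ectoderm as well, at 48.8, 49.8 and 48.4 CPM in its pool. The pool of E13 endoderm had 167, 144 and 72.2 CPM. HHEX, GATA4 and LHX1 did not pass against ectoderm in the 3 libraries or at E13 alone. NODAL has a second identifier with almost the same counts (4264 against 4254 in the compared cells, equal in 99 of 112 cells with a count), so its reads may be shared and its level is uncertain.

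A few genes of the epiblast and of early mesoderm were lower in E13 endoderm than in E13 ectoderm, namely 2 of 18 tested ectoderm and pluripotency genes (SOX2 and DNMT3B) and 2 of 19 primitive streak and mesoderm genes (MESP1 and HAND1), with none higher in either list. SOX2, a pluripotency and neural factor, was counted in 0 of 12 endoderm cells and 61 of 85 ectoderm cells of E13 (after thinning 0 of 11 and 40 of 83). Its ectoderm levels were 45.6 and 34.3 CPM in the 2 libraries and 39.99 CPM in the pool of both, and the pooled level is at least 26.9-fold higher than the 3 counts that 0 in the pooled endoderm allows (adjusted p = 0.0435 at E13 alone). DNMT3B, a DNA methyltransferase of the epiblast, stood at 36.0 and 49.1 CPM in endoderm against 303 and 255 CPM in ectoderm (log2 −2.52, SE 0.41, adjusted p = 0.00531). POU5F1 was still counted in 12 of 12 E13 endoderm cells (after thinning 11 of 11), at 18 and 135 CPM in the sums against 349 and 353 CPM in ectoderm, and did not pass (adjusted p = 0.085). MESP1 and HAND1, factors of early mesoderm, were also lower than in ectoderm at E13 alone (log2 −3.02 and −2.13), with MESP1 at 78.9 and 215 CPM in ectoderm and 9.0 and 21.2 CPM in endoderm. VIM, the intermediate filament of mesenchyme, stood at 18 and 22.5 CPM in endoderm against 114 and 126 CPM in ectoderm (log2 −2.38, SE 0.40, adjusted p = 0.00634). SOX2 in E14 endoderm stood at 11 and 1.94 CPM against 15.3 to 67.2 CPM in ectoderm, and did not pass.

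At E14 alone some listed serum proteins and epithelial genes were among the 81 genes higher than in ectoderm. Of 27 tested hypoblast and yolk sac genes 13 were higher (APOA1, APOB, APOC3, APOE, APOM, DAB2, FGA, FGB, FGG, RBP4, SERPINA1, TF and TTR), with a median log2 difference of 1.51 against −0.07 over all genes. At E13 alone 9 of 25 in this list were higher too, with a median of 1.89 against −0.25. These were APOA1, APOB, APOE, APOM, COL4A1, COL4A2, DAB2, LAMB1 and RBP4. TTR, the carrier of thyroid hormone and retinol-binding protein, stood at 376 and 229 CPM in E14 endoderm against 5.51 to 55.4 CPM in E14 ectoderm (log2 2.56, SE 0.37, adjusted p = 7.94e-09), and at 27 and 4.78 CPM in E13 endoderm. SERPINA1, a protease inhibitor of serum, stood at 67.3 CPM in P11 and 561 CPM in P12 endoderm against 1.63 to 9.78 CPM in ectoderm (log2 4.44, adjusted p = 6.42e-17). The P12 endoderm sum holds 2 cells, and the deeper gave 52.9% of its counts. The E14 p-values rest on P11 and these 2 cells, so their size is no guide to how far a difference repeats. The fit of E13 alone also rests on 2 libraries, with 2 residual degrees of freedom, and the same limit holds for its p-values. AFP, the fetal serum albumin-like protein, stood at 775 and 159 CPM in E14 endoderm and at 0 in both E13 sums, with a count in 15 of 15 and 0 of 12 cells (after thinning 15 of 15 and 0 of 11). AFP was also counted in 108 of 123 ectoderm cells and 20 of 25 mesoderm cells of E14 (after thinning 99 of 120 and 19 of 24), at 258 and 340 CPM in the ectoderm and mesoderm of P11. It did not pass at E14 (log2 1.1, adjusted p = 0.136). Among the epithelial genes AP1M2, CLDN4, CLDN7, EPCAM, RAB25 and SPINT2 were higher at E14. EPCAM, an epithelial adhesion molecule, stood at 202 and 291 CPM in endoderm and 78.0 to 104 CPM in ectoderm (log2 1.43, SE 0.39, adjusted p = 0.0359).

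Against mesoderm the differences went both ways: several matrix and mesenchyme genes were lower in endoderm, and some epithelial genes and endoderm factors were higher. In the 3 libraries 145 of 13072 genes passed (1.11%), 61 higher (0.467%) and 84 lower (0.643%). At E13 alone 273 of 13384 passed (2.04%), 141 higher (1.05%) and 132 lower (0.986%), and at E14 alone 301 of 12778 (2.36%), 110 higher (0.861%) and 191 lower (1.49%). Of 47 genes checked that passed in the 3 libraries, 25 no longer passed without P19, 9 of 46 without P18, 7 without the deepest endoderm cell of P18 and 4 without P11. Among the genes higher in endoderm, C6 (log2 9.15, adjusted p = 0.00506) and GPX2 (8.19, adjusted p = 0.00115) had the largest differences under the same rule, and neither passed without P18.

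Of 18 tested mesenchyme genes 9 were lower in endoderm in the 3 libraries (CDH11, COL1A1, COL1A2, COL3A1, COL5A2, DCN, LUM, POSTN and VIM) and none higher, with a median log2 difference of −2.98 against −0.06 over all genes. At E13 alone 9 of 17 were lower and 2, CDH2 and FN1, higher, with a median of −4.30 against −0.22, or −3.88 with the 1 gene that has a group at 0 set at its bound. At E14 alone 11 of 18 were lower and CDH2 higher. Without P18 the count lower was also 9, with CDH2 higher, and 5 were lower without P19 (COL1A1, COL1A2, COL3A1, DCN and LUM). DCN, a small proteoglycan that binds collagen, stood at 1.80 and 2.05 CPM in E13 endoderm against 97.2 and 358 CPM in E13 mesoderm, and at 42.6 and 64.1 CPM in E14 endoderm against 779 to 1196 CPM in E14 mesoderm. Its log2 difference was −5.78 (SE 0.69, adjusted p = 0.00106), and −6.74 at E13 alone (adjusted p = 0.000449). LUM, a related proteoglycan, stood at 7.20 and 2.73 CPM against 204 and 311 CPM at E13 and at 75.2 and 56.3 CPM against 710 to 1070 CPM at E14 (log2 −4.92, SE 0.60, adjusted p = 0.00113, and −5.77 at E13 alone, adjusted p = 0.00027). The endoderm and mesoderm sums of these genes did not overlap within a day, and for both genes the E14 levels of endoderm and of mesoderm lay above those of E13. COL3A1, a fibrillar collagen, stood at 1.80 and 0 CPM in E13 endoderm and at 222 and 117 CPM in E14 endoderm, against 121 to 935 CPM in the 5 mesoderm sums (log2 −4.70, SE 0.88, adjusted p = 0.0193). E14 ectoderm had COL3A1 at 157 to 180 CPM, which lies between the 2 E14 endoderm sums, with a count in 122 of 123 cells (after thinning 113 of 120), while E13 ectoderm had 2.63 and 1.71 CPM. CDH2, the neural cadherin, stood at 240, 212, 166 and 171 CPM in the endoderm of P18, P19, P11 and P12 against 9.13 to 100 CPM in mesoderm. It passed at E13 alone (log2 2.67, SE 0.66, adjusted p = 0.0478) and at E14 alone (1.43, SE 0.42, adjusted p = 0.03), but not in the 3 libraries together (2.24, adjusted p = 0.0752). FN1, a matrix protein also made by endoderm, went the other way at E13 alone, with 1459 and 834 CPM in endoderm against 495 and 391 CPM in mesoderm (log2 1.52, adjusted p = 0.034).

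CAV1, the coat protein of caveolae, had the largest difference among the genes lower in endoderm than in mesoderm, at 50 CPM or more in mesoderm. It stood at 7.20, 2.05, 0 and 0 CPM in the endoderm of P18, P19, P11 and P12 and at 155 to 366 CPM in the 5 mesoderm sums (log2 −7.38, SE 0.83, adjusted p = 0.000977, and −6.23 at E13 alone, adjusted p = 0.000202). No CAV1 count was seen in the 15 endoderm cells of E14, which puts the pooled E14 mesoderm (182 CPM) at least 278-fold higher than the 3 counts that 0 over the group allows. The other genes chosen by the same rule were SIDT1, TMEM100, CCN4, WFDC1, PTGS1, POSTN, BMP5, ACTA2 (smooth muscle actin) and MAB21L2, with log2 differences from −4.93 to −6.76. Of these SIDT1, TMEM100, POSTN, BMP5 and ACTA2 no longer passed without P19 (adjusted p from 0.0662 to 0.413), nor BMP5 without P18 (0.0514) or POSTN without P11 (0.364). HAND1, a factor of lateral and extraembryonic mesoderm, stood at 27, 13.6, 189 and 124 CPM in endoderm and at 377 to 606 CPM in mesoderm (log2 −3.32, SE 0.55, adjusted p = 0.0087, and −4.55 at E13 alone, adjusted p = 0.000202). BMP4 and PDGFRA were lower as well (log2 −2.06 and −1.89), so that 3 of 20 primitive streak and mesoderm genes were lower and 1, GATA4, was higher. Without P19 HAND1 alone of these 4 passed. NID2 and SPARC, matrix proteins that hypoblast also makes, and DAB2, an endocytic adaptor, were lower in endoderm than in mesoderm (log2 −3.64, −1.56 and −1.69, adjusted p = 0.00212, 0.025 and 0.0499). NID2 passed without any one library, SPARC not without P19 (adjusted p = 0.393), and DAB2 in none of the 3 fits that leave out a library (adjusted p from 0.0662 to 0.0708).

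Of 21 tested endoderm transcription factors 4 were higher than in mesoderm in the 3 libraries (GATA4, HHEX, LHX1 and OTX2) and none lower. Their median log2 difference was 2.39 against −0.06 over all genes, or 2.19 with the 1 gene that has a group at 0 set at its bound. Without P19 LHX1 and OTX2 passed, and without the deepest endoderm cell of P18 LHX1, OTX2 and SOX17. HHEX, a factor of the anterior endoderm and later liver, stood at 153 and 173 CPM in E13 endoderm against 24.2 and 8.59 CPM in E13 mesoderm (log2 3.57 in the 3 libraries, SE 0.62, adjusted p = 0.0114, and 3.16 without P19, adjusted p = 0.208). It stood at 13 and 0 CPM in the endoderm of P11 and P12. OTX2, a factor of the anterior epiblast and endoderm, stood at 337 and 169 CPM against 10.6 and 15 CPM at E13 (log2 4.12 in the 3 libraries, SE 0.53, adjusted p = 0.0015), and at 12 and 0 CPM in E14 endoderm. GATA4 stood at 187, 128, 39.4 and 40.8 CPM in endoderm and at 3.29 to 50.1 CPM in mesoderm (log2 2.54, SE 0.56, adjusted p = 0.044, and 1.99 without P19, adjusted p = 0.463). LHX1, a factor of the organiser and node, stood at 182 and 30.7 CPM in E13 endoderm and at most 6.61 CPM in every mesoderm and E14 endoderm sum (log2 5.27, SE 0.79, adjusted p = 0.00435, and 4.98 without P18, adjusted p = 0.0735). At E13 alone FOXA2 and SOX17 passed as well, whereas at E14 alone CDX1 and GRHL2 passed of 18 tested, and not GATA4, HHEX or OTX2, while LHX1 was not tested. FOXA2 stood at 97.2 and 55.9 CPM in E13 endoderm against 10.6 and 4.56 CPM in mesoderm (log2 3.58, SE 0.74, adjusted p = 0.0178). In E14 endoderm FOXA2 was at 12.2 CPM in P11 but 111 CPM in the 2 cells of P12. HHEX, OTX2, GATA4, LHX1 and SOX17 were thus above mesoderm in both E13 libraries and stood lower in both E14 endoderm sums than in both E13 sums. CXCR4, a chemokine receptor of migrating endoderm, was also higher than in mesoderm in the 3 libraries (log2 1.90, SE 0.42, adjusted p = 0.0478), but in none of the fits that leave out a library (adjusted p from 0.0747 to 0.501).

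The mesoderm of P18 also held apolipoproteins and other genes of endoderm, which the mesoderm of P19 held at lower levels. APOA1 stood at 1093 CPM in P18 and 404 CPM in P19 mesoderm and at 535 to 778 CPM in E14 mesoderm, below endoderm of the same library in all 4 libraries (log2 2.12, SE 0.46, adjusted p = 0.0417, and 1.75 without P19, adjusted p = 0.513). APOM stood at 163 CPM in P18 mesoderm and 1.07 CPM in P19 mesoderm, HNF4A at 80.5 and 2.15 CPM, TTR at 253 and 0.805 CPM, and SOX17 at 29.3 and 1.88 CPM. In P18 an HNF4A count was seen in 8 of 10 mesoderm cells and a TTR count in 10 of 10 (after thinning 8 and 9 of 10), so these counts were spread over its cells. TTR was higher in the mesoderm of P18 (253 CPM) than in its endoderm (27 CPM). The part of these cells or their RNA in the contrasts with mesoderm was not tested, and without P18 APOA1 passed against mesoderm.

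Of 27 tested epithelial genes 4 (AP1M2, CLDN3, CLDN7 and OCLN) were higher in endoderm than in mesoderm in the 3 libraries and none lower, with a median log2 difference of 1.55 against −0.06. Without P19 AP1M2 alone passed, and without P18 6 of 27 were higher, CLDN3 not among them. At E13 alone 8 of 28 were higher, with CDH1, EPCAM, ESRP1 and MARVELD3 added, and at E14 alone 9 of 27. OCLN, a protein of tight junctions, stood at 155, 131, 50.9 and 77.7 CPM in endoderm and at 1.88 to 30.7 CPM in mesoderm (log2 3.99, SE 0.65, adjusted p = 0.00827, 3.89 at E13 alone, adjusted p = 0.0118, and 3.19 without P19, adjusted p = 0.0662). CLDN7, also of tight junctions, stood at 205, 231, 199 and 431 CPM in endoderm and at 11.5 to 115 CPM in mesoderm (log2 2.46, SE 0.54, adjusted p = 0.0463, and 1.83 without P19, adjusted p = 0.176). CDH1, the epithelial cadherin, stood at 133 and 90.1 CPM in E13 endoderm, 201 and 155 CPM in E13 ectoderm and 38.2 and 20.1 CPM in E13 mesoderm. Its difference from mesoderm passed at E13 alone (log2 2.16, SE 0.43, adjusted p = 0.0155) and that from ectoderm did not (log2 −0.49, SE 0.41, adjusted p = 0.64).

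**Figure D3:**
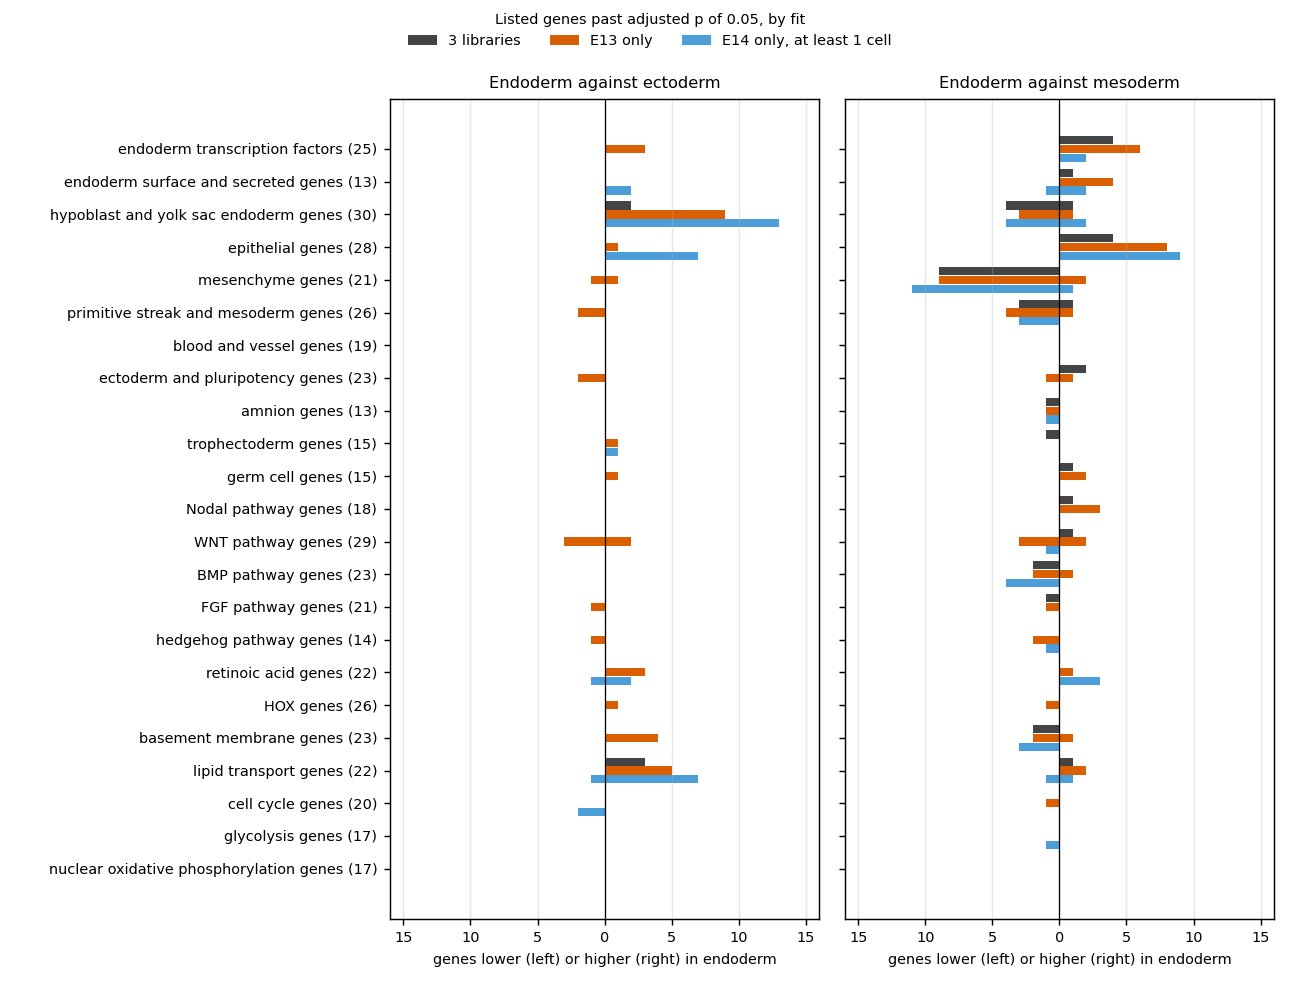
Number of listed genes that passed an adjusted p of 0.05 in each list (rows, with the number of genes that have an identifier), lower in endoderm to the left and higher to the right. Bars are the fit of the 3 libraries, E13 alone and E14 alone (at least 1 cell a sum). Most mesenchyme genes that passed against mesoderm lie to the left of 0 in all 3 fits, with CDH2 and FN1 at E13 and CDH2 at E14 to the right, and hypoblast and lipid transport genes to the right against ectoderm.

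Some signalling genes passed at E13 alone and others at E14 alone. Those that passed at E14 but not at E13 were FZD2, BMP6, FST and HHIP, lower than in mesoderm, and ALDH1A1, CRABP1 and CRABP2, higher than in mesoderm. Against ectoderm, TTR was higher and FABP5 lower at E14 and not at E13. In the Nodal list, of which 17 genes were tested in the 3 libraries, none differed from ectoderm, and NODAL alone was higher than in mesoderm (log2 5.61, SE 0.65, adjusted p = 0.00103), at 3.37 and 3.76 CPM in E13 mesoderm and 0 in the mesoderm of P11, P12 and P13. At E13 alone SKIL and TGIF1, both repressors of SMAD targets, were also higher than in mesoderm. In the WNT list FZD5, a receptor, stood at 569 and 257 CPM in E13 endoderm against 26.7 and 29.5 CPM in ectoderm and 14.4 and 9.13 CPM in mesoderm. Its log2 difference at E13 alone was 3.98 from ectoderm (SE 0.45, adjusted p = 0.000265) and 5.28 from mesoderm (SE 0.49, adjusted p = 7.48e-05), whereas in E14 endoderm FZD5 stood at 32.8 and 69.9 CPM and passed neither test. LEF1 (a transcription factor that WNT acts through), RSPO3 (which strengthens WNT signals) and WNT5B (a ligand) were lower in E13 endoderm than in both other lineages. RSPO3 stood at 3.60 and 2.05 CPM in E13 endoderm, 61.4 and 119 CPM in ectoderm and 179 and 78.7 CPM in mesoderm (log2 −4.94 and −5.41, adjusted p = 0.00355 and 0.000971). In E14 endoderm it stood at 88.4 and 21.4 CPM. DKK1, a secreted WNT inhibitor, was higher than in mesoderm at E13 alone (adjusted p = 0.0286), but its endoderm level was 279 CPM in P18 and 11.6 CPM in P19.

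In the BMP list of 23 tested genes, none differed from ectoderm in the 3 libraries, and BMP4 and BMP5 were lower than in mesoderm. BMP4 stood at 101, 58.7, 107 and 216 CPM in endoderm and at 277 to 632 CPM in mesoderm (log2 −2.06, SE 0.32, adjusted p = 0.00595, −1.72 at E13 alone, adjusted p = 0.0423, and −1.99 without P19, adjusted p = 0.0617). In the FGF list FGF19 was the only member that passed, lower than in mesoderm in the 3 libraries (log2 −3.51, adjusted p = 0.0199, and −2.75 without P19, adjusted p = 0.27) and lower than in both lineages at E13 alone. Of the hedgehog list PTCH1, the receptor and a target of the pathway, stood at 0 and 1.36 CPM in E13 endoderm against 23.6 to 152 CPM in the other E13 sums, and at 111 and 23.3 CPM in E14 endoderm. It passed at E13 alone against ectoderm (log2 −4.91, adjusted p = 0.0166) and mesoderm (−6.91, adjusted p = 0.000718). In the retinoic acid list, CYP26A1 (which degrades retinoic acid) and RBP4 were among the genes higher than in ectoderm at E13 alone. CYP26A1 stood at 131 and 349 CPM in E13 endoderm against 37.3 and 143 CPM in ectoderm (log2 1.74, adjusted p = 0.0404). None of the cell cycle, glycolysis, oxidative phosphorylation or blood and vessel genes passed in the 3 libraries against either lineage. At E13 alone CCND2 was lower than in mesoderm. At E14 alone CCNB1 and CDK1 were lower than in ectoderm, and ALDOC was lower than in mesoderm.

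The contrasts with ectoderm and with mesoderm use the same endoderm sums. Against the mean of both lineages 82 genes passed in the 3 libraries (0.627%), 68 higher (0.52%) and 14 lower (0.107%). At E13 alone 300 passed (2.24%), 225 higher (1.68%) and 75 lower (0.56%), and at E14 alone 169 (1.32%), 101 higher (0.79%) and 68 lower (0.532%). The genes with the largest higher values were C6, ARG1, SLC28A3, SERTM2 and GPX2 (log2 6.22 to 8.42). The lower genes that met the rule on level and direction were CAV1, CCN4, WFDC1, FGF19, GPX7, VIM, PPIC and PDLIM7 (log2 −1.35 to −5.41).

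Set side by side, lipid carriers (against ectoderm) and matrix genes (against mesoderm) passed on both days. The E13 and E14 fits have no library in common, and both have 11938 genes. Against ectoderm, 20 genes passed in the same direction on both days, which is 14.3% of the E13 calls and 23.0% of the E14 calls, and 2 passed in opposite directions. They include APOA1, APOA2, APOB, APOE, APOM, RBP4, DAB2, SELENOP, GPX3 and GPC3, and also CAV1 and CDX4, which were lower in endoderm. Against mesoderm 71 genes were shared (27.8% and 24.6%), and 1 was opposite. The shared genes include the collagens COL1A1, COL1A2, COL3A1, COL5A1 and COL5A2, DCN, LUM, CAV1, BMP4, HAND1, VIM, EPCAM, CLDN7 and AP1M2. Across all genes the log2 differences of the 2 days had a Spearman rho of 0.20 against ectoderm and 0.17 against mesoderm, over genes of the same libraries, which are not independent. Among the 324 listed genes in both fits, 7 passed on both days against ectoderm, all higher in endoderm, and 19 against mesoderm, 4 higher and 15 lower.

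**Figure D4:**
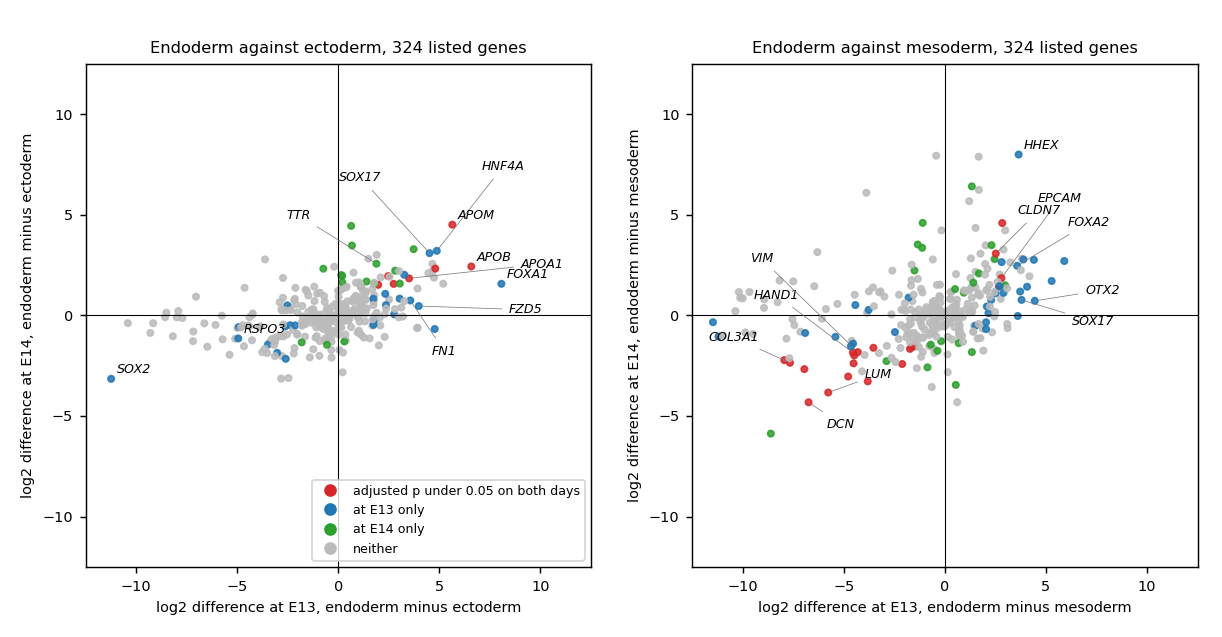
Log2 difference of endoderm from ectoderm (left) and mesoderm (right) for 324 listed genes, at E13 (x axis) and at E14 (y axis). Colours give the day or days on which the adjusted p was under 0.05. APOA1, APOB and APOM lie to the upper right on the left, and DCN, LUM and COL3A1 to the lower left on the right, while SOX17, FOXA1 and HNF4A passed at E13 only.

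The difference between days was tested as an interaction of lineage and day in the 4 libraries with any endoderm cell, a test chosen after the data were seen. Against ectoderm 5 of 12833 genes passed (0.039%), all with a larger endoderm excess at E13: FN1, FZD5, LOXL2, SLC7A9 and TNNT2. Against mesoderm 21 passed (0.164%), 10 with a larger value at E13 (0.0779%) and 11 with a smaller one (0.0857%). FN1 stood at 1459 and 834 CPM in E13 endoderm against 118 and 101 CPM in ectoderm, and at 650 and 703 CPM in E14 endoderm against 388 to 426 CPM (interaction log2 2.86, SE 0.49, adjusted p = 0.027). SOX17 did not pass this test against ectoderm (log2 1.48, adjusted p = 0.973) or mesoderm (log2 3.16, adjusted p = 0.494). For the levels of E13 and E14 endoderm themselves no test is given, since only P11 held 3 or more E14 endoderm cells. Of 4899 named genes with 100 counts over both pools and 50 CPM in at least 1 of them, 81 were at least 4-fold higher in the E13 pool and 285 at least 4-fold lower, with 1 CPM added to both levels. The highest ratios at E13 were GKN2, ARG1, SAMD3, SLC7A11, NODAL and EOMES, and the lowest AFP, COL3A1, HOXC8, HOXA9, FGG and ACTA2. HOXC8, a patterning gene of the trunk, was at 0 in both E13 endoderm sums and at 151 and 9.71 CPM at E14, where E14 ectoderm had 39.8 to 104 CPM.

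Beside the earlier endoderm groups of the same table, E13 definitive endoderm differed in part of its factors. These groups are Hypoblast_E10 (90 cells of 3 libraries), Endoderm_E11 (13 cells, 1 library) and Endoderm_E12 (18 cells, 1 library), none of which shares a library with the others, so their pooled levels are given with exact 95% Poisson intervals, which cover counting error only, and with no test. SOX17 was at 186 CPM (182 to 190) in E10 hypoblast, 78.9 CPM (68 to 91.0) at E11, 64.4 CPM (55.5 to 74.3) at E12, 175 CPM (157 to 194) in E13 and 9.35 CPM (6.77 to 12.6) in E14 definitive endoderm. GATA4 was at 145, 143 and 138 CPM in the 3 earlier groups, 144 CPM at E13 and 39.6 CPM at E14. These levels of SOX17 and GATA4 thus do not set E13 definitive endoderm apart from hypoblast. HHEX was at 7.13 to 18.7 CPM in the 3 earlier groups and 167 CPM (150 to 186) in E13 definitive endoderm. OTX2 was at 8.65 to 25.2 CPM against 215 CPM (195 to 236), LHX1 at 0 to 1.38 CPM against 72.2 CPM (61 to 85), and CER1 at 0.594 to 13.8 CPM against 57.9 CPM (47.9 to 69.4). FOXA1 was at 4.55, 7.13 and 22.2 CPM at E10, E11 and E12, 38.1 CPM in E13 and 44.6 CPM in E14 definitive endoderm. CXCR4 was at 5.54 to 10.9 CPM in the earlier groups, 77.7 CPM at E13 and 70.7 CPM at E14.

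**Figure D5:**
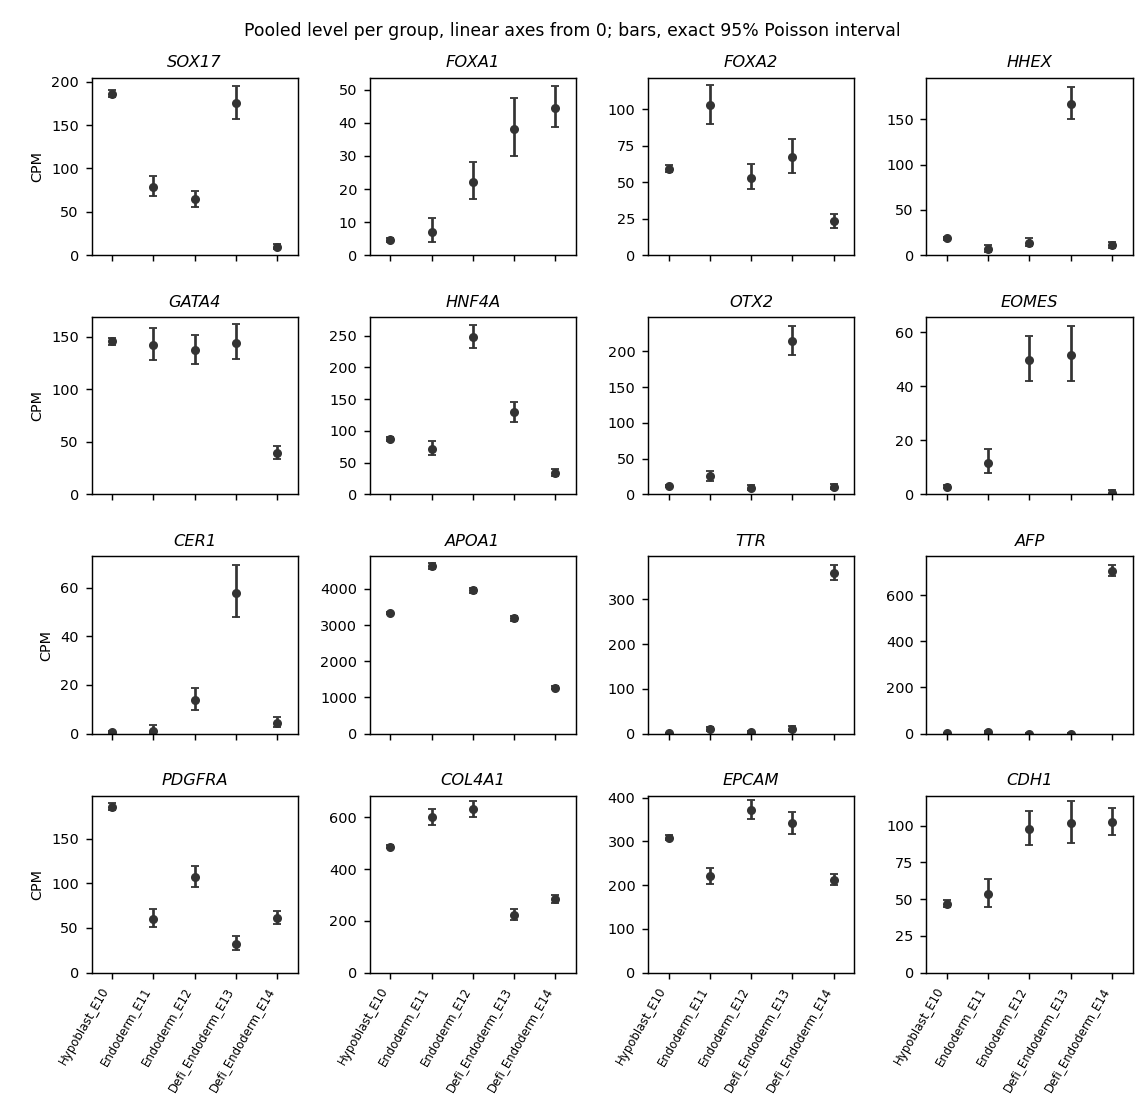
Pooled level in CPM, on linear axes from 0, of 16 genes in E10 hypoblast, E11 and E12 endoderm and E13 and E14 definitive endoderm, with exact 95% Poisson intervals. HHEX, OTX2 and CER1 are high in E13 definitive endoderm alone among these 5 groups, SOX17 is as high in E10 hypoblast, and TTR and AFP are high at E14.

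Several basement membrane genes stood lower in definitive endoderm than in the earlier groups. Against ectoderm at E13 alone, however, 4 of 20 tested basement membrane genes were higher (COL18A1, COL4A1, COL4A2 and LAMB1) and 0 lower. COL4A1 was at 487, 600 and 632 CPM at E10, E11 and E12, and at 223 CPM (203 to 244) in E13 and 286 CPM (271 to 302) in E14 definitive endoderm. LAMA1, a laminin chain, was at 366 to 372 CPM in the earlier groups and 48.5 and 85.7 CPM in definitive endoderm. NID2 was at 202 to 312 CPM against 8.91 CPM at E13, and PDGFRA, a receptor used to mark hypoblast, at 60.4 to 186 CPM against 32.2 CPM. APOA1 was highest at E11 (4637 CPM) and was 3958, 3184 and 1271 CPM at E12, E13 and E14. In E13 endoderm 175 of 4790 genes were at least 4-fold above E10 hypoblast and 270 at least 4-fold below. The highest included GPC3, RBP2, SERTM2, FRZB and LHX1, and the lowest MYL4, EMP1, PAQR8, RRAD and CRYAB.

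Over the 2000 most variable genes the pooled profile of E13 endoderm was most like that of E13 ectoderm (Spearman rho 0.54), followed by E13 mesoderm (0.45). Its rho was 0.33 with E12 endoderm, 0.32 with E14 ectoderm, 0.30 with E14 endoderm, 0.29 with E14 mesoderm, 0.26 with E10 hypoblast and 0.20 with E11 endoderm. E14 endoderm was most like E14 ectoderm (0.75) and E14 mesoderm (0.59). These are descriptions over 9 groups. Groups of a day share libraries but differ in depth, and E13 endoderm was shallower than E13 ectoderm and mesoderm.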

How the data were processed

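Per the labels' protocols, single cells were lysed with a barcode for each cell and amplified by a Smart-seq2 method that the submitters had modified. The submitters' processing notes list UMI-tools, featureCounts 1.6.4, STAR 2.7.1a and the build Sscrofa11.1, without saying what each was used for. The deposited counts are whole numbers per gene and cell for 29214 pig genes and 92 spike-ins. The authors also deposited the mean and SD of each group of cells, which by comparison with the counts are on a scale of log2(CPM/10 + 1). Groups were recovered from the means over 24284 matched rows, and a limit of 25% of the largest weight gave the same 27 endoderm cells.

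Summed counts without spike-ins were tested with edgeR 4.0.16 in R 4.3.3 (quasi-likelihood test, TMM, filterByExpr, trended dispersion, threshold 0.05). A sum needed at least 3 cells, so P12, with 2 endoderm cells, and P13, with none, stayed out of the 3-library fit, which had 4 residual degrees of freedom (2 at E13 alone). Library was a block because the lineages of a library come from the same library, and their deviations from the lineage means correlated at 0.101 to 0.416. Where levels are given for E14, P12 and P13 are included. Thinning drew 50000 counts a cell. The script was tested on simulated counts. Alternatives were DESeq2 1.42.0, its size factors, limma 3.58.1, no filter, other cell minimums, a common dispersion, no block and each library left out.

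The 450 listed genes form 23 lists, and 30 had no identifier. Symbols came from the reference table for 14800 genes and from equal means in the authors' table for 810. Besides list members, the text names genes among the 12 with the largest difference in each direction that passed, reached 50 CPM in the higher lineage and had the same direction in every library, without ribosomal and mitochondrial genes. The members and lists were chosen with earlier results of these data known. Intervals and floors (3 counts) cover counting error only. Doublets were not called. Strand use in counting is not stated, so overlapping genes may share reads.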

Additional observations from a re-analysis of the deposited data

Results flagged for a closer look

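The endoderm sum of P18 stood apart from the other 3 endoderm sums in its share of spike-in counts (7.19% against 1.99% to 2.72%) and of mitochondrial counts (4.39% against 1.74% to 1.81%). The ectoderm markers summed to 306 CPM in the endoderm of P19 against 101 to 124 CPM in the other 3 endoderm sums. The trophectoderm markers summed to 327 CPM in the ectoderm of P12 against 83.7 to 137 CPM in the other 4 ectoderm sums. The germ cell markers summed to 168 CPM in the mesoderm of P18 against 53.2 to 85.5 CPM in the other 4 mesoderm sums. In each case the gap to the nearest sum was large for the range of its group. Of 36 groups of sums examined 5 had such a sum, where chance gives about 1 in 20.

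For some genes the difference of endoderm from another lineage itself differed between days in edgeR's quasi-likelihood test of the interaction, given here as E13 minus E14 on the log2 scale. Against ectoderm these were TNNT2 (10.18), SLC7A9 (4.83), LOXL2 (4.55), FZD5 (3.57) and FN1 (2.86), each with an adjusted p of about 0.027. Against mesoderm, with adjusted p from 0.00776 to 0.0498, the value was larger at E13 for SLC7A11 (8.66), FRZB (6.74), NAALAD2 (6.09), ABR (4.54), PAGE4 (4.51), LOXL2 (3.96), SERPINB6 (3.79), FZD5 (3.59), ACADM (3.55) and RBP2 (2.90). It was smaller at E13 for CXCL14 (−2.92), LEF1 (−3.96), WNT5B (−4.91), COL3A1 (−5.33), PTCH1 (−5.97), MAP1A (−7.24), IFIT1 (−11.87) and HEPH (−11.88). Smaller values were also found for 3 identifiers without a name, ENSSSCG00000050209 (−3.94), ENSSSCG00000050649 (−3.94) and ENSSSCG00000048343 (−4.77). IFIT1 and HEPH were at 0 in both E13 endoderm sums, and TNNT2, SLC7A11, COL3A1, PTCH1 and MAP1A were at 0 in at least 1 sum, so the sizes fitted for these 7 genes depend on the prior count. The E14 side rests on P11 and the 2 cells of P12, and day and library cannot be told apart.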

How the results depend on the processing

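The genes past the threshold against ectoderm, mesoderm and the mean of both numbered 26, 145 and 82. They numbered 252, 776 and 505 with DESeq2, 263, 503 and 441 when genes of low count were kept, 70, 336 and 179 with sums of at least 1 cell, and 60, 239 and 186 with at least 5 cells. E13 alone gave 153, 273 and 300, and E14 alone, at 1 cell or more and chosen after the data were seen, 93, 301 and 169. Cells with at least 6000 detected genes gave 32, 232 and 134, a common dispersion 12, 119 and 66, and limma on means over cells 19, 279 and 66. Without the replicate block 0, 4 and 0 genes passed in edgeR, with 790, 1301 and 1180 at an unadjusted p under 0.05. Leaving out 1 library gave 19 to 153, 56 to 273 and 47 to 300 genes, lowest without P19 and highest without P11. Without P19, 14, 50 and 38 of the genes were shared with the 3-library fit, and without P18 11, 115 and 40. Higher calls were 42.1% of those against mesoderm, but 16.5% with limma and 26.8% without P19. Against the mean of both they were 82.9%, but 56.1% with limma and 65% with DESeq2. Against ectoderm they were 100%, but 77.8% at E13 alone and 68.4% with low counts kept. The cause of these shifts was not tested. Of 1104 values recomputed for 70 pairs of a gene and a comparison, 836 kept their direction and side of the threshold, 214 lost their call, 54 gained one and none changed sign. E13 alone and the fit without P11 are the same fit, and both are counted here. Without the block 60 of the 70 lost their call. Many of these genes were named for having the same direction in every library, so the lack of sign changes is in part set by that choice. A fit of E14 at 3 cells or more was not run, since P11 alone had them.

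Depth is lowest in E13 endoderm, where 3 counts of the pool correspond to 1.48 CPM and 5 of 12 cells had under 6000 detected genes.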
